A study of Mus musculus with 6 samples.

Results

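The genes described here encode the constitutive proteasome, the protease that degrades ubiquitin-tagged proteins in every cell. They were chosen by name: protein-coding mouse genes of the series *Psma*, *Psmb*, *Psmc* and *Psmd* and the cap genes *Psme1* to *Psme4*, without the immunoproteasome genes *Psmb8*, *Psmb9* and *Psmb10*, and with 10 or more raw counts in each of 6 libraries. Of the 55421 gene rows counted, 44 protein-coding genes matched these names, 3 were immunoproteasome genes and 1 did not reach the count minimum, which left 40 members. All 40 were among the 13849 genes that passed the filter on low counts and entered the test. The gene left out for low counts was *Psmb11*, a thymus-specific subunit with 1 count in 1 library. The members nearest to the minimum were *Psmc3ip*, with 23 counts in its lowest library, and *Psma8*, with 34.

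By role, the 40 members were 15 genes of the 20S core (8 for the alpha ring, 7 for the beta ring), 17 of the 19S cap, 3 chaperones that help assemble the base of that cap (*Psmd5*, *Psmd9* and *Psmd10*), and 4 of the alternative caps PA28 and PA200 (*Psme1* to *Psme4*). The last member, *Psmc3ip*, matches the naming rule by its letters, but it encodes a partner of recombination enzymes in meiosis and is no proteasome subunit. It is counted among the 40 and kept out of each subcomplex. *Psma8* encodes the alpha subunit of the testis proteasome and is counted with the core.

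The proteasome is a barrel of stacked rings, closed by alpha rings on the outside and cut through by a chamber whose proteolytic sites sit in the beta rings. The 19S cap binds ubiquitin chains, removes them, and unfolds the substrate with a ring of ATPases before it enters the barrel. PA28 and PA200 are caps that work without ubiquitin or ATP. In monocytes and other immune cells, interferons induce 3 immunosubunits that take the places of the constitutive catalytic subunits in newly built cores, together with PA28, which favors peptides for MHC class I.

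Splenic monocytes were taken from IL-4Rα+/+ and IL-4Rα-/- mice, 3 per genotype, and sequenced in bulk with 1 library per mouse, so p-values measure the spread between 6 mice. IL-4Rα is the chain shared by the receptors for IL-4 and IL-13, and the IL-4Rα-/- mice lacked it in the whole body. All mice were C57BL/6, with no treatment named in the labels, and the study's animals were 8 to 16 weeks old. The comparison asked whether the transcriptome of splenic monocytes differs when IL-4Rα is absent. Cells were obtained with an EasySep kit by negative selection, so cells that escape its antibodies stay in the sample.

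Gene positions are those of GRCm38 in Gencode vM21. The libraries held 26807281 to 29033297 reads counted on genes, and another 21.1 to 22.8% of the reads were assigned to no gene, of which reads outside genes made up 8.87 to 11.7% of all reads and the rest were unmapped, multimapping or ambiguous. *Il4ra*, the targeted gene, had 137, 128 and 177 CPM (counts scaled to a common library size, corrected by TMM) in IL-4Rα+/+ libraries 1, 2 and 3 and 27.9, 79.4 and 31.8 CPM in IL-4Rα-/- libraries 1, 2 and 3. The genotypes did not overlap, with a log2 fold change of -1.67 ± 0.41 (SE, n = 3 per genotype, adjusted p of 0.618 by edgeR and 0.0109 by DESeq2), and IL-4Rα-/- library 2 kept the most *Il4ra* of its group. All 14 monocyte markers looked at were present in every library. *Xist*, the RNA of the inactive X chromosome, was at 553 CPM in IL-4Rα+/+ library 1 and 457 CPM in IL-4Rα-/- library 3, and at 3.72 CPM or lower in the other 4. Sex is not given in the labels, and these 2 libraries were the ones with almost no reads of the Y-linked genes *Ddx3y*, *Eif2s3y* and *Kdm5d*.

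Most proteasome genes had slightly higher estimates in IL-4Rα-/- monocytes, and no member passed the test. Of 40 members, 36 had a log2 fold change above 0 (IL-4Rα-/- over IL-4Rα+/+), against 51.5% of all genes tested. The members share their libraries and are not 40 separate observations, with 33 of them highest in IL-4Rα-/- library 2. Genes of matched transcript length are compared further below. The median was 0.13 over the members, 0.15 over the 20S core, 0.11 over the 19S cap and 0.15 over the 3 base chaperones, against 0.01 over all genes tested. For *Psme1* to *Psme4* it was -0.02, and for those caps 2 genes lay above 0 and 2 below. The 4 members below 0 were *Psma8*, *Psmd11*, *Psme2* and *Psme4*.

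With edgeR's quasi-likelihood test and Benjamini-Hochberg adjustment over 13849 genes, 0 of 40 members had an adjusted p under the study's threshold of 0.15, and neither did any other gene, so the share called was 0%. Adjusted p-values of the members ran from 0.618 to 0.984. DESeq2 called 0 members and 0.589% of 13745 genes. At an unadjusted p under 0.05, 3 members were higher in IL-4Rα-/- (7.5%, against 3.72% of all genes) and 0 were lower (against 4.37%). In 8 members (20%) every IL-4Rα-/- library lay above every IL-4Rα+/+ library, against 7.63% of all genes, and in 0 members below, against 7.87%. The 8 were *Psma3*, *Psma5*, *Psmb2*, *Psmd4*, *Psmd14*, *Psmd10*, *Psme3* and *Psmc3ip*.

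The intervals were narrow. For 36 of 40 members the 95% interval of the log2 fold change lay within 0.5 on either side of 0, which held for 45.2% of all genes. The exceptions were *Psma8*, *Psmc1*, *Psmd6* and *Psmc3ip*. Over the 6 libraries the median coefficient of variation was 8.49% for the members and 14.5% for all genes tested. Both measures depend on the number of reads per gene, and genes of matched level were not compared.

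**Figure D1:**
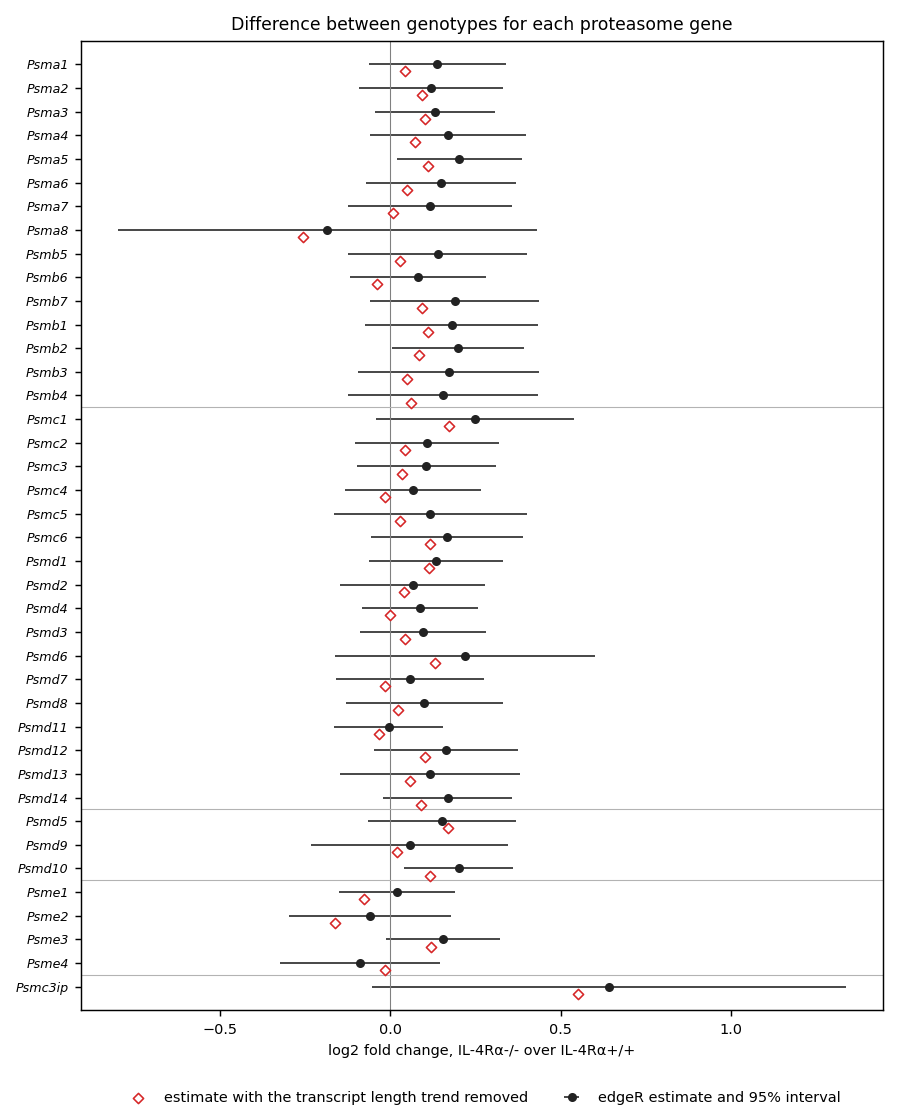
Log2 fold change (IL-4Rα-/- over IL-4Rα+/+, horizontal axis) of each of the 40 members, grouped from top to bottom into 20S core, 19S cap, base chaperones, PA28 and PA200, and *Psmc3ip*. Filled points with bars are edgeR estimates with 95% intervals and open diamonds are estimates with the transcript length trend removed. Points lie right of 0 for 36 members and diamonds for 31, and 3 intervals (*Psma5*, *Psmb2* and *Psmd10*) exclude 0 before adjustment.

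In the alpha ring, which gates the entrance to the barrel, 7 of 8 genes had a fold change above 0. *Psma5* (ENSMUSG00000068749.9, 9 exons on the plus strand of chr3:108256926-108279974) had the smallest p of the core. It stood at 50.7, 45.0 and 49.8 CPM in IL-4Rα+/+ libraries 1, 2 and 3 and at 57.0, 57.4 and 53.0 CPM in the IL-4Rα-/- libraries. All 3 IL-4Rα-/- libraries were above the highest IL-4Rα+/+ library. Its log2 fold change was 0.20 ± 0.08 (SE, n = 3 per genotype), with an adjusted p of 0.618 by edgeR.

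The other alpha genes gave log2 fold changes of 0.14 for *Psma1*, 0.12 for *Psma2*, 0.13 for *Psma3*, 0.17 for *Psma4*, 0.15 for *Psma6* and 0.12 for *Psma7*. These are subunits that every constitutive core contains. *Psma3* was the other alpha gene whose genotypes did not overlap, with 59.8 to 67.0 CPM in IL-4Rα+/+ and 68.0 to 72.5 CPM in IL-4Rα-/-. *Psma8*, with 34 to 47 counts per library, had a log2 fold change of -0.19 and the widest interval of the core. It ran from -0.80 to 0.43, so that the sign of a difference could not be told.

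In the beta ring all 7 genes lay above 0. The 3 catalytic subunits were *Psmb5* (chymotrypsin-like activity), *Psmb6* (caspase-like) and *Psmb7* (trypsin-like). *Psmb5* was at 25.5, 25.0 and 30.0 CPM in IL-4Rα+/+ libraries 1, 2 and 3 and at 27.6, 32.7 and 28.4 CPM in the IL-4Rα-/- libraries. IL-4Rα+/+ library 3 exceeded 2 of the 3 IL-4Rα-/- libraries, so the genotypes overlapped.

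*Psmb6* read 78.3, 75.8 and 84.2 CPM in IL-4Rα+/+ and 79.4, 91.1 and 81.6 CPM in IL-4Rα-/- in the same order of libraries. *Psmb7* read 91.4, 88.9 and 104 CPM in IL-4Rα+/+ and 99.8, 121 and 103 CPM in IL-4Rα-/-. For both, library 3 was the highest of IL-4Rα+/+, library 2 the highest of IL-4Rα-/-, and the genotypes overlapped. Log2 fold changes were 0.14 ± 0.11 for *Psmb5*, 0.08 ± 0.08 for *Psmb6* and 0.19 ± 0.10 for *Psmb7* (SE, n = 3 per genotype), with adjusted p-values of 0.720, 0.768 and 0.642 by edgeR.

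*Psmb2* (ENSMUSG00000028837.8, 6 exons on the plus strand of chr4:126677630-126709714), a beta subunit without proteolytic activity, had the second smallest p of the core. It was at 61.9, 63.0 and 68.1 CPM in IL-4Rα+/+ libraries 1, 2 and 3 and at 70.3, 79.7 and 71.4 CPM in the IL-4Rα-/- libraries. The genotypes did not overlap, although the highest IL-4Rα+/+ and the lowest IL-4Rα-/- library were close. Its log2 fold change was 0.20 ± 0.08 (SE, n = 3 per genotype), with an adjusted p of 0.618 by edgeR. The other non-catalytic beta genes had log2 fold changes of 0.18 for *Psmb1*, 0.17 for *Psmb3* and 0.15 for *Psmb4*.

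The 9 genes of the 19S base all lay above 0 and 0 of them reached an unadjusted p under 0.05. The base holds the ATPases that unfold substrates. Log2 fold changes of the ATPase genes were 0.25 for *Psmc1*, 0.11 for *Psmc2*, 0.11 for *Psmc3*, 0.07 for *Psmc4*, 0.12 for *Psmc5* and 0.17 for *Psmc6*. *Psmc1* had the largest estimate of the core and the 19S cap, with an SE of 0.12 and an adjusted p of 0.626 by edgeR. It was at 75.3 to 88.5 CPM in IL-4Rα+/+ and at 87.4, 113 and 89.9 CPM in IL-4Rα-/- libraries 1, 2 and 3, so library 2 stood well above the other two of its genotype. The scaffold genes *Psmd1* and *Psmd2* were at 0.13 and 0.07, and the ubiquitin receptor *Psmd4* at 0.09. *Psmd4* varied little within IL-4Rα-/-, from 125 to 127 CPM, against 112 to 125 CPM in IL-4Rα+/+.

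The lid, which carries the deubiquitinase, had 7 of 8 genes above 0. *Psmd14* (ENSMUSG00000026914.15, 12 exons on the plus strand of chr2:61711694-61800376) encodes that deubiquitinase. It was at 63.3, 56.5 and 63.4 CPM in IL-4Rα+/+ libraries 1, 2 and 3 and at 68.8, 71.8 and 65.1 CPM in the IL-4Rα-/- libraries. The genotypes did not overlap, and the log2 fold change was 0.17 ± 0.08 (SE, n = 3 per genotype) with an adjusted p of 0.623 by edgeR. Its partner in the enzyme, *Psmd7*, was at 0.06. Log2 fold changes of the scaffold genes of the lid were 0.10 for *Psmd3*, 0.22 for *Psmd6*, 0.10 for *Psmd8*, -0.00 for *Psmd11*, 0.16 for *Psmd12* and 0.12 for *Psmd13*.

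*Psmd6* and *Psmd11* marked the extremes of variation among the subunits of the cap. *Psmd6* had a coefficient of variation of 16.8% over the 6 libraries and an interval from -0.16 to 0.60. *Psmd11* had 3.01% and an interval from -0.16 to 0.15, the narrowest of the cap genes.

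The smallest p of all members belonged to a chaperone. *Psmd10* (ENSMUSG00000031429.14, 5 exons on the minus strand of chrX:140948429-140956728), also called gankyrin, binds the ATPase encoded by *Psmc4* while the base is assembled. It was at 35.1, 33.4 and 33.2 CPM in IL-4Rα+/+ libraries 1, 2 and 3 and at 39.5, 39.7 and 37.6 CPM in the IL-4Rα-/- libraries. The groups were well separated and the log2 fold change was 0.20 ± 0.07 (SE, n = 3 per genotype), with an adjusted p of 0.618 by edgeR. Leaving out any 1 library kept it between 0.19 and 0.23. *Psmd10* lies on the X chromosome. Among the 2 *Xist*-high libraries it was 37.6 CPM in IL-4Rα-/- against 35.1 CPM in IL-4Rα+/+, and among the other 4 it was 39.5 and 39.7 against 33.4 and 33.2 CPM. The other base chaperones, *Psmd5* and *Psmd9*, had log2 fold changes of 0.15 and 0.06.

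Of the alternative caps, 2 genes lay above 0 and 2 below. *Psme1* and *Psme2* encode the alpha and beta chains of PA28, the cap that interferon-γ induces. *Psme1* was at 258, 247 and 235 CPM in IL-4Rα+/+ libraries 1, 2 and 3 and at 252, 241 and 256 CPM in the IL-4Rα-/- libraries. *Psme2* was at 205, 192 and 163 CPM in IL-4Rα+/+ and at 181, 173 and 182 CPM in IL-4Rα-/-. For both genes the highest and the lowest value of all 6 libraries were in IL-4Rα+/+, in libraries 1 and 3, and the IL-4Rα-/- libraries lay between them. Log2 fold changes were 0.02 ± 0.07 and -0.06 ± 0.10 (SE, n = 3 per genotype), with adjusted p-values of 0.941 and 0.845 by edgeR.

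*Psme3* (ENSMUSG00000078652.9, 11 exons on the plus strand of chr11:101316213-101323537) encodes the nuclear PA28γ. It was at 106, 102 and 104 CPM in IL-4Rα+/+ libraries 1, 2 and 3 and at 110, 122 and 115 CPM in the IL-4Rα-/- libraries. The genotypes did not overlap, and the log2 fold change was 0.16 ± 0.07 (SE, n = 3 per genotype) with an adjusted p of 0.618 by edgeR. *Psme4* encodes PA200, a large nuclear cap. It was at 113, 126 and 139 CPM in IL-4Rα+/+ and at 110, 122 and 123 CPM in IL-4Rα-/-. The groups overlapped, with a log2 fold change of -0.09 ± 0.10 (SE, n = 3 per genotype) and an adjusted p of 0.782 by edgeR.

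*Psmc3ip*, the member that is no subunit, (ENSMUSG00000019303.14, minus strand of chr11:101091823-101095436, opposite *Mlx*) had the largest fold change. Its counts were among the lowest, 31, 23 and 33 counts in IL-4Rα+/+ libraries 1, 2 and 3 and 56, 37 and 49 in the IL-4Rα-/- libraries. The genotypes did not overlap. The log2 fold change was 0.64 ± 0.29 (SE, n = 3 per genotype) with an adjusted p of 0.618 by edgeR. Markers of dividing cells summed to 158 to 271 CPM in IL-4Rα+/+ and 302 to 330 CPM in IL-4Rα-/-. Of these markers 8 of 8 were higher and 6 of 8 did not overlap, against 51.5 and 7.63% of all genes tested. Their part in the *Psmc3ip* result was not tested.

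Levels also differed between libraries of the same genotype. Summed over the 15 core genes, the level was 1318, 1287 and 1459 CPM in IL-4Rα+/+ libraries 1, 2 and 3 and 1422, 1646 and 1436 CPM in the IL-4Rα-/- libraries. The means were 1354 ± 91.6 and 1502 ± 126 CPM (SD, n = 3 per genotype), a ratio of 1.11. IL-4Rα-/- library 2 stood highest by far, and IL-4Rα+/+ library 3 came next, above the other two IL-4Rα-/- libraries. The 17 genes of the 19S cap summed to 1603, 1469 and 1688 CPM in IL-4Rα+/+ and to 1652, 1847 and 1644 CPM in IL-4Rα-/-, a ratio of 1.08. Here too IL-4Rα-/- library 2 was highest, IL-4Rα+/+ library 3 second and IL-4Rα+/+ library 2 lowest.

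**Figure D2:**
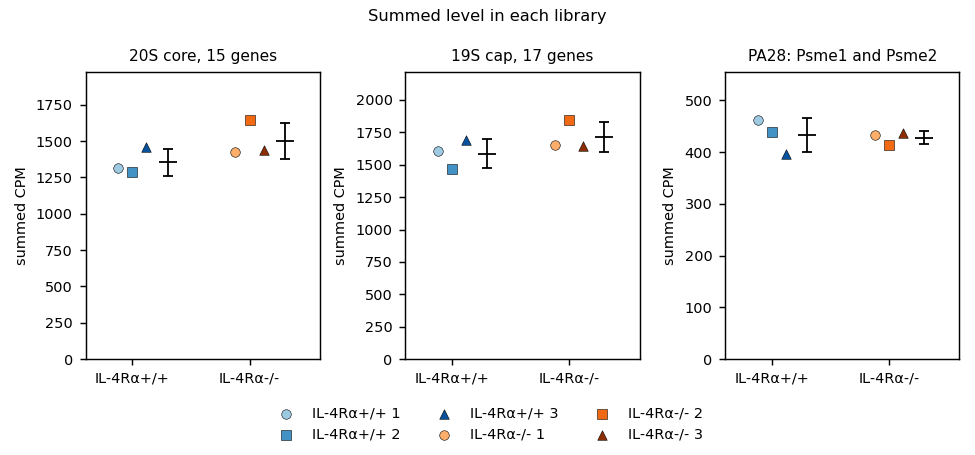
Summed CPM (vertical axes, from 0) of the 20S core, the 19S cap and the PA28 genes *Psme1* and *Psme2* in each library, with the mean ± SD of 3 libraries beside each genotype. Core and cap are highest in IL-4Rα-/- library 2 (1646 and 1847 CPM), whereas PA28 spans 397 to 463 CPM in IL-4Rα+/+ and 414 to 438 CPM in IL-4Rα-/-.

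Most single genes shared the highest and the lowest library of these sums, while the order between them varied. IL-4Rα+/+ library 3 exceeded both other IL-4Rα+/+ libraries for 25 of 32 core and 19S genes. IL-4Rα-/- library 2 was the highest of 6 for 29 of 32 genes of the core and the 19S cap, and for 33 of all 40 members (82.5%), against 24.8% of all genes tested. IL-4Rα+/+ library 2 was the lowest for 26 of the 32 and for 30 of the 40 (75%), against 18.6%. *Psme1* and *Psme2* went the other way, with IL-4Rα-/- library 2 below the other two of its genotype.

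**Figure D3:**
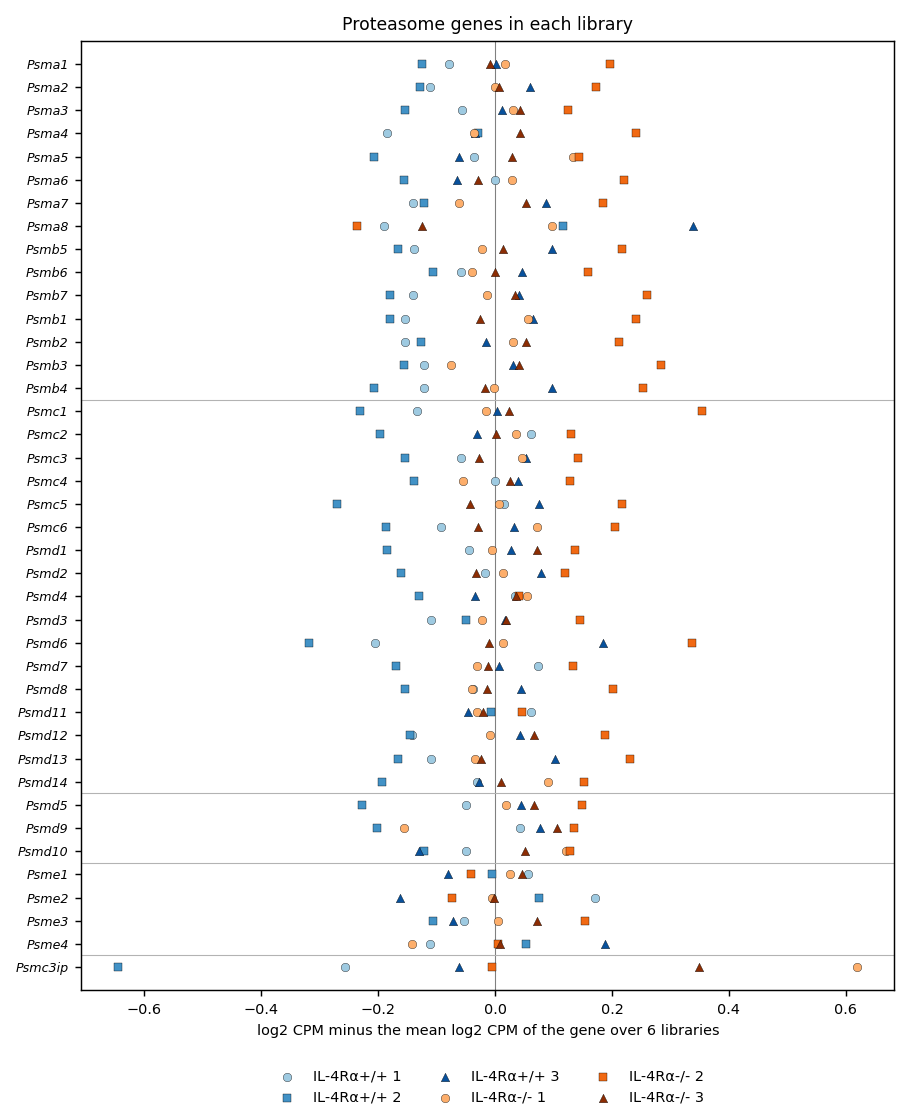
Log2 CPM of each member in each library minus the mean log2 CPM of that gene over 6 libraries (horizontal axis), with 1 row per gene. Blue symbols are IL-4Rα+/+ and orange to brown symbols IL-4Rα-/- libraries. Orange squares (IL-4Rα-/- 2) lie at the right end in 33 rows and blue squares (IL-4Rα+/+ 2) at the left end in 30.

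Leaving out IL-4Rα-/- library 2 kept 36 of 40 members above 0 and brought the median log2 fold change of the members from 0.13 to 0.07, with 0 members at an unadjusted p under 0.05. Among all genes in that fit 48.4% lay above 0, with a median of -0.01, and 2.87% were higher and 2.70% lower at that level. The core median became 0.07 and the cap median 0.06. Without IL-4Rα+/+ library 2 the median of the members was 0.09, again with 0 at an unadjusted p under 0.05, against 2.15% of all genes higher and 2.30% lower.

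Genes of the monocyte subsets also differed between libraries. *Ccr2*, a chemokine receptor of Ly6C-high monocytes, was at 380, 1044 and 1667 CPM in IL-4Rα+/+ libraries 1, 2 and 3 and at 825, 2007 and 978 CPM in the IL-4Rα-/- libraries. *Ace*, abundant in Ly6C-low monocytes, was at 2772, 2122 and 1087 CPM in IL-4Rα+/+ and at 1744, 709 and 1603 CPM in IL-4Rα-/-. IL-4Rα-/- library 2 and IL-4Rα+/+ library 3, the highest for core and 19S cap, thus had the most *Ccr2* and the least *Ace*. *F13a1*, also of Ly6C-high monocytes, was at 325, 790 and 1851 CPM in IL-4Rα+/+ and at 826, 2121 and 1073 CPM in IL-4Rα-/-. From the highest to the lowest core sum, the libraries were in the order of falling *F13a1* and of rising *Ace*, except that the last of them, IL-4Rα+/+ libraries 1 and 2, changed places. *Ccr2* departed from that order in IL-4Rα+/+ library 2 as well, which ranked above both IL-4Rα-/- libraries 1 and 3. Other genes of the 14 monocyte markers were mixed. *Spn* rose in the same order as *Ace*, from 280 CPM in IL-4Rα-/- library 2 to 1185 CPM in IL-4Rα+/+ library 1. *Ly6c2* was higher in IL-4Rα-/- library 3 (502 CPM) than in IL-4Rα+/+ library 3 (427 CPM). *Treml4* was lowest in IL-4Rα+/+ library 3, at 252 CPM, against 258 CPM in IL-4Rα-/- library 2. The part of monocyte subsets in the proteasome levels was not tested, and in bulk RNA fewer cells of a type and less RNA per cell cannot be told apart.

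Other cells were present as well. Markers of red pulp macrophages summed to 2956 to 3402 CPM in IL-4Rα+/+ and to 3857 to 5981 CPM in IL-4Rα-/-, with 8 of 8 higher and 3 of 8 not overlapping, and erythroid markers to 76.0 to 142 and 186 to 454 CPM, with 13 of 13 tested higher and 10 not overlapping. Neutrophil and pancreatic acinar markers were highest in IL-4Rα-/- library 2, at 679 and 367 CPM, against 61.7 to 276 and 10.4 to 54.2 CPM in the other 5 libraries. The neutrophil marker *Ly6g* was at 0 in at least 1 library, as were 11 of the 12 acinar genes. Markers of eosinophils, basophils and mast cells were higher for 9 of 11 genes and did not overlap for 7, at sums of 124 to 245 CPM in IL-4Rα+/+ and 117 to 245 CPM in IL-4Rα-/-. Of all genes tested, 51.5% lay above 0 and 7.63% did not overlap and were higher. Markers of B and plasma cells, of T and NK cells and of dendritic cells had 0 genes without overlap. Higher among those tested were 8 of 11, 5 of 9 and 3 of 8. The part of these cells in the proteasome values was not tested.

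Transcript length moved with the fold change across all genes. Over 13837 genes with an annotated length, the Spearman correlation of the log2 fold change with length was -0.243, a description across genes, which share their libraries. Proteasome transcripts are short, with a median of 1540.5 bases against 2748 for all genes tested. Among transcripts of up to 1000 bases, members and all genes were close, with medians of 0.13 for 6 members (5 above 0) and 0.11 for all genes (64.9% above 0). Among transcripts of over 1000 to 1500 bases, 67.8% of all genes lay above 0 with a median of 0.09, and 13 of 13 members did with a median of 0.15. Among those of over 1500 to 2000 bases the medians were 0.05 for all genes and 0.11 for 10 members, and among those of over 2000 to 3000 bases 0.03 and 0.11 for 8 members. Of the 3 longer members, 2 had a median of 0.14, against -0.02 for all genes of over 3000 to 5000 bases, and *Psme4* was at -0.09, against -0.11 for all longer genes.

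With the length trend removed from every library, 31 of 40 members lay above 0 (46.3% of all genes did), the median of the members became 0.05 and 0 members had an unadjusted p under 0.05, while 2.57% of all genes were higher and 3.64% lower at that level. The median was 0.06 for the core, 0.04 for the 19S cap and -0.05 for PA28 and PA200, against -0.02 for all genes. *Psmb6*, *Psmc4*, *Psmd4*, *Psmd7* and *Psme1* then had estimates below 0, at -0.04, -0.02, -0.00, -0.02 and -0.08. *Psmd10*, *Psma5* and *Psmb2* were at 0.12, 0.11 and 0.08.

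Transcript levels differed widely between members, also between subunits that a finished core holds in equal number. Divided by transcript length, *Psma7* was the most abundant member, at 225 ± 20.2 CPM per kilobase in IL-4Rα+/+ (SD, n = 3), followed by *Psme1* at 222 ± 10.4 and *Psme2* at 194 ± 22.5. These 3 did not differ beyond their spread. *Psmb4* was next at 130 ± 14.5. Within the alpha ring the lowest gene found in every core was *Psma3* at 22.3 ± 1.28 CPM per kilobase, for which the annotated principal transcript is 2846 bases long, and a shorter transcript would give a higher level.

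Among the catalytic genes *Psmb6* was highest in IL-4Rα+/+ at 99.5 ± 5.39 CPM per kilobase, *Psmb7* had 81.6 ± 6.84 and *Psmb5* only 29.9 ± 3.08. The base chaperones *Psmd5* and *Psmd9* lay below every subunit of core and cap other than *Psma8*, at 7.87 ± 0.741 and 8.54 ± 0.872 CPM per kilobase, and did not differ beyond their spread. *Psma8* and *Psmc3ip* were at 0.890 ± 0.161 and 0.817 ± 0.162.

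**Figure D4:**
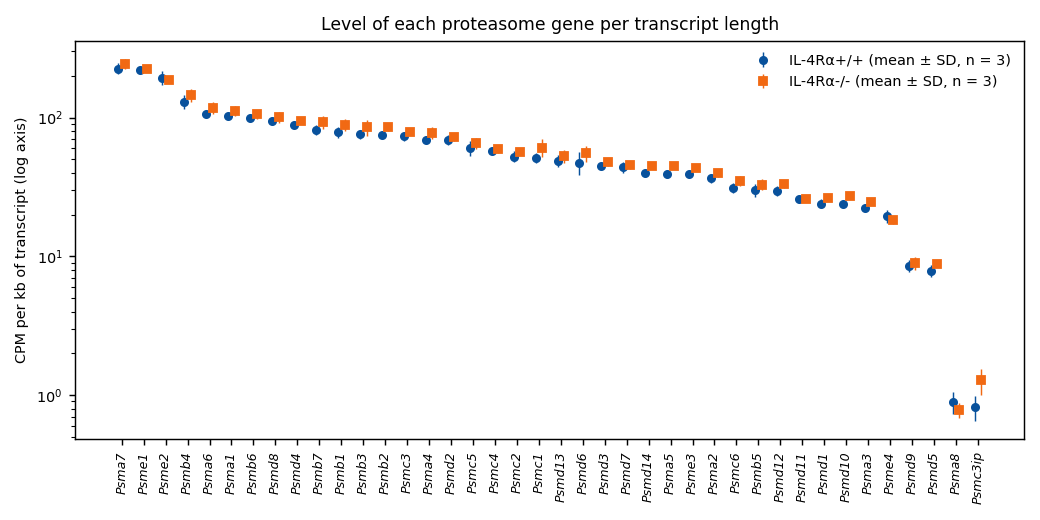
CPM per kilobase of transcript (vertical log axis) of each member, ordered by its IL-4Rα+/+ level, as mean ± SD of 3 libraries per genotype. *Psma7*, *Psme1* and *Psme2* lead at 194 to 225 CPM per kilobase in IL-4Rα+/+, *Psma8* and *Psmc3ip* lie below 1 in IL-4Rα+/+, and the genotypes nearly coincide for most genes.

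The constitutive catalytic genes were compared with the immunosubunits that replace them. *Psmb8*, *Psmb9* and *Psmb10* had log2 fold changes of -0.08, -0.09 and 0.07, with adjusted p-values of 0.793, 0.767 and 0.787 by edgeR. Per transcript length, *Psmb5* made up 11.1, 11.5 and 14.9% of the sum of *Psmb5* and *Psmb8* in IL-4Rα+/+ libraries 1, 2 and 3 and 13.9, 15.5 and 13.03% in the IL-4Rα-/- libraries. The groups overlapped, at 12.5 ± 2.11% and 14.2 ± 1.25% (SD, n = 3, two-sided exact permutation test, p = 0.3). *Psmb8* transcripts thus outnumbered those of *Psmb5* in all 6 libraries.

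For *Psmb6* with *Psmb9* the constitutive share was 50.4 ± 3.60% in IL-4Rα+/+ and 53.2 ± 2.26% in IL-4Rα-/- (SD, n = 3, exact permutation test, p = 0.3), and for *Psmb7* with *Psmb10* it was 41.8 ± 1.56% and 43.8 ± 0.630% (exact permutation test, p = 0.2). Both shares overlapped between the genotypes. Adjusted over the 3 shares each p was 0.3, and with 3 against 3 libraries the smallest p this exact test can give is 0.1. In each of the 3 shares IL-4Rα-/- library 2 was the highest of the 6 libraries, at 15.5, 55.7 and 44.6%.

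**Figure D5:**
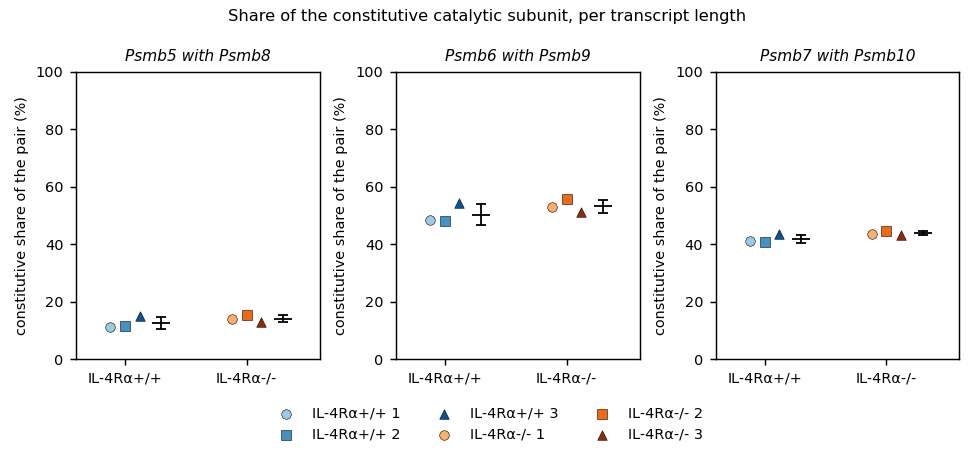
Share of the constitutive subunit in the sum with its immunosubunit (%, from 0 to 100, per transcript length) in each library, with mean ± SD of 3 libraries per genotype. *Psmb5* holds 11.1 to 15.5% of its pair, *Psmb6* 48.2 to 55.7% and *Psmb7* 40.7 to 44.6%, and the genotypes overlap in each pair.

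Other genes of the pathway gave no call. From a list of 45 genes outside the naming rule, 44 were tested, and 0 passed the threshold. At an unadjusted p under 0.05 by edgeR there were 0 in either direction, against 3.72% of all genes higher and 4.37% lower. Of the 44, 29 lay above 0 and 15 below, with a median log2 fold change of 0.04. Genotypes did not overlap for 6 of the 44 that were higher and 1 that was lower, against 7.63 and 7.87% of all genes. The higher ones were *Pomp*, *Psmg2*, *Psmg4*, *Txnl1*, *Rad23b* and *Faf1*, and the lower one was *Ube3c*. All 6 genes listed as assembly factors of the 20S core lay above 0, against 51.5% of all genes tested, with a median of 0.14. With the length trend removed *Psmg1* and *Akirin2* were below 0, at -0.004 and -0.05. *Pomp*, *Psmg2*, *Psmg3* and *Psmg4* were then at 0.05, 0.11, 0.12 and 0.02. *Pomp*, one of these factors, was at 168 to 184 CPM in IL-4Rα+/+ and 186 to 199 CPM in IL-4Rα-/-. Its log2 fold change was 0.13, with an adjusted p of 0.642 by edgeR. The 19S subunits named outside the rule were *Adrm1*, a ubiquitin receptor, at 0.05, and *Sem1*, a small lid subunit, at 0.20. *Nfe2l1*, the transcription factor that induces proteasome genes when the proteasome is inhibited, was at -0.04, and 5 of 7 regulators lay below 0. The other 13 tested binding proteins and inhibitors had a median of 0.05, 6 ubiquitin and E1 genes 0.06, and 7 genes of p97 and its cofactors 0.01.

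Promoters were searched for motifs in the 250 bases before the start site, as a description. RefSeq sequences of GRCm38.p6 covered 33 of 40 members. Searched on both strands were TGACNNNGC (the core of the antioxidant response element, which NFE2L1 and NFE2L2 read), CCAAT and CTTCCGG (a site of ETS factors). TGACNNNGC occurred in 5 of 33 members (15.2%), among them *Psmb5* and *Psmb6*, against 14.1% of 10031 tested genes with a promoter entry and 11.5% of all 27025 promoter genes. CCAAT occurred in 13 (39.4%), against 40.7 and 37.5%. CTTCCGG occurred in 12 (36.4%), against 15.8 and 7.83%, with 8 of 14 genes of the 19S cap and 1 of 11 of the core. A match is a description of letters and no evidence of binding, and its part in the transcript levels was not tested. The immunosubunit genes had CCAAT in *Psmb9* and none of the other motifs.

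To show these matches, 3 promoters are printed 5′ to 3′ with motif matches in capitals: *Psmb5*, a catalytic gene with TGACNNNGC (chr14:54617996-54618245, minus strand), *Psmc1*, the cap gene with the largest fold change, with CCAAT and CTTCCGG (chr12:100109952-100110201, plus strand), and *Psmd10*, the member with the smallest p, with 3 CCAAT boxes, 2 of them read as ATTGG (chrX:140956712-140956961, minus strand).
Psmb5: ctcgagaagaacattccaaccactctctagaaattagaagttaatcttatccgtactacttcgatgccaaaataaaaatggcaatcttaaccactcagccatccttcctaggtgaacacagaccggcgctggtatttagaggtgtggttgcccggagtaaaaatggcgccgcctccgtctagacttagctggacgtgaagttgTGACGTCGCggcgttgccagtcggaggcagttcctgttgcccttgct
Psmc1: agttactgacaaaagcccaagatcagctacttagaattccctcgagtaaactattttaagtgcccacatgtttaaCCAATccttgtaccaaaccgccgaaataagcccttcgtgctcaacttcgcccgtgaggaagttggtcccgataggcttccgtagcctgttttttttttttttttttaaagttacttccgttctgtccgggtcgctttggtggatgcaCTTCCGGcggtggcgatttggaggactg
Psmd10: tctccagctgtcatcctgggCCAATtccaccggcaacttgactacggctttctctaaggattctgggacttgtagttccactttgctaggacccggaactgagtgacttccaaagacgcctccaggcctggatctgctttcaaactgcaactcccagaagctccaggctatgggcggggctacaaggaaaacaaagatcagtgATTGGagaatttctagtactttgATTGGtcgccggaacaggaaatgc

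Counting limits some of these genes. Of the 40 members, 16 overlap an annotated antisense gene and 8 a gene on the same strand, with introns included. The deposited counts do not name the strand setting. Ambiguous reads were left out, so members may have lost reads that fall on both genes, and which overlaps share exons was not examined. Among the genes given by library above, those with a partner are *Psma5*, *Psmb5*, *Psmb7*, *Psmd14*, *Psme1*, *Psme4* and *Psmc3ip*. Among the others they are *Psma2*, *Psma3*, *Psma4*, *Psma6*, *Psmc3*, *Psmc5*, *Psmd1*, *Psmd3*, *Psmd5*, *Psmd9*, *Psmd12* and *Psmd13*. *Psme2b*, an intronless copy of *Psme2* and no member, had 398, 439 and 378 counts in IL-4Rα+/+ libraries 1, 2 and 3 and 302, 266 and 372 in IL-4Rα-/-. Its log2 fold change was -0.43. Reads that fit both it and *Psme2* equally may be among the multimapping reads left out.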

How the data were processed

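RNA of splenic monocytes, enriched by negative selection, was read as poly(A)-selected single-end libraries. Per the study's methods and the submitters' processing notes, the authors aligned reads to GRCm38 with STAR 2.6.1a, and they deposited raw counts per gene (1 table per library). Which strand setting the counts use is not given in the sources used here. The rows that name no gene (unmapped, multimapping, ambiguous and outside genes, 21.1 to 22.8% of reads) were left out.

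Counts were tested with edgeR 4.0.16 (quasi-likelihood, TMM, filterByExpr with a minimum count of 10, R 4.3.3), genotype as the single term, Benjamini-Hochberg adjustment over 13849 genes and the study's threshold of 0.15. CPM use TMM-scaled library sizes. Fold changes are IL-4Rα-/- over IL-4Rα+/+. Alternatives were DESeq2 1.42.0, other scalings, no filter, a replicate block, a loess correction for transcript length, and leaving out each library. On simulated data with the same dispersion for every gene, edgeR recovered 96% of 2-fold changes. These were set in a sample of well-counted genes out of 13901 tested. Changes as small as those of the members were not simulated, so the share does not describe the power to detect them. Exact permutation tests over 20 labelings used scipy 1.17.1. Names, positions and transcript lengths came from Gencode vM21, which matched 55154 of 55421 identifiers.

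Members and gene lists were chosen with earlier results of these data known. Every member is named, with values in each library for the catalytic subunits, the *Psme* genes and the 6 members with the smallest p. *Psmc1*, *Psma3*, *Psmd4*, *Psmd6*, *Psmd11*, *Psmg1*, *Psmg2*, *Psmg3*, *Psmg4* and *Akirin2* were singled out after their values were seen. So were *Txnl1*, *Rad23b*, *Faf1* and *Ube3c*, and the monocyte markers *Ccr2*, *Ace*, *F13a1*, *Spn*, *Ly6c2* and *Treml4*.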

Additional observations from a re-analysis of the deposited data

How the results depend on the processing

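No member passed the threshold under any of the 14 settings, where adjusted p-values of members ran from 0.408 to 0.997. Over all genes DESeq2 called 81, and edgeR 0 with and without each alternative. The 3 members at an unadjusted p under 0.05 became 6 with upper quartile scaling, 1 with DESeq2, and 0 with no filter on low counts, with the replicate block and with the length trend removed. The shares of all genes also moved. Higher and lower genes made up 2.36 and 2.34% with DESeq2 and 2.52 and 2.88% with no filter. They made up 2.92 and 2.61% with the block and 2.57 and 3.64% with the length trend removed. Leaving out a library gave 0 to 4, with 0 without IL-4Rα+/+ library 2, IL-4Rα-/- library 1 or IL-4Rα-/- library 2. Of all genes, 2.15% were higher and 2.30% lower without the first of these, 1.78 and 2.72% without the second, and 2.87 and 2.70% without the third. The 4 came without IL-4Rα+/+ library 3, where 5.11% of all genes were higher and 7.02% lower. The 8 members whose genotypes did not overlap became 15 with upper quartile scaling, under which 10.1% of all genes did not overlap and were higher and 5.89% lower, 5.02% were higher and 3.12% lower at an unadjusted p under 0.05, and the median of all genes was 0.03. The replicate numbers did not pair the samples (correlations of deviations 0.18, -0.27 and -0.30 over 13849 genes), and the block is given here alone. The median of all members stayed above 0, at 0.07 without IL-4Rα-/- library 2, 0.09 without IL-4Rα+/+ library 2, 0.18 without IL-4Rα+/+ library 3 and 0.05 with the length trend removed. That of PA28 and PA200 ran from -0.035 to 0.032 on leaving out a library. Of 40 members, 32 kept their sign in every setting. *Psmd11* turned to 0.016 with upper quartile scaling. With the length trend removed, *Psmb6* (-0.038), *Psmc4* (-0.017), *Psmd4* (-0.0017), *Psmd7* (-0.017) and *Psme1* (-0.076) turned below 0. On leaving out a library, ranges across 0 were -0.028 to 0.025 for *Psmd11*, -0.149 to 0.012 for *Psme2*, -0.0086 to 0.111 for *Psmd7*, -0.025 to 0.139 for *Psmd9* and -0.014 to 0.052 for *Psme1*. The cause of these moves was not tested. A newer dispersion estimate in edgeR was added after seeing the data. Low counts limit *Psma8* and *Psmc3ip* most.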
